A study of Mus musculus with 18 samples.

Results

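The chemokine ligands described here are 8 genes, Ccl1, Ccl3, Ccl4, Ccl5, Ccl20, Ccl22, Xcl1 and Cxcl10, taken by name from the 37991 genes counted in every library. All 8 passed the filter on low counts, together with 17240 genes in all. They were measured by RNA-seq in CD4+ T cells enriched by negative selection from the spleen of Tg4 mice on the H2u background, which carry a transgenic TCR for a peptide of myelin basic protein (MBP) in every group, and which were 6 to 12 weeks old and of both sexes. Naive cells (N) came from mice given PBS on the dosing schedule, and tolerized cells (T) from mice given the MBP peptide analog 4Y subcutaneously in rising doses every 3 to 4 days. N0 and T0 cells were taken 2 h after a last injection of PBS, NAg and TAg cells 2 h after a last injection of 80 µg of 4Y peptide (Ag), and NPI and TPI cells after 2 h in culture with 20 ng/ml of the phorbol ester PMA and 2 µM of the calcium ionophore A23187 (PI), which acts downstream of the TCR. There were 3 biological replicates in each of the 6 groups.

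Chemokines are small secreted proteins that draw leukocytes along a gradient by binding G protein-coupled receptors. CCL3 and CCL5 bind CCR1, and together with CCL4 and with XCL1, whose receptor XCR1 marks cross-presenting dendritic cells, they are classic products of activated T cells and NK cells. CCL1 binds CCR8, CCL20 binds CCR6, CCL22 and CCL17 share CCR4, and CXCL10 shares CXCR3 with CXCL9 and CXCL11, which are induced by interferon. CCL22 and CCL17 are best known as products of dendritic cells and macrophages, and CXCL9, CXCL10 and CXCL11 are also made by many other cells.

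Total counts ranged from 10758571 to 24119489 per library and were higher after PI (at least 14895843) than in the other groups (at most 13559974). A normalized count below is a read count divided by the TMM-scaled size of its library relative to the mean over libraries. The CD4 T cell markers were present in every library, but their summed normalized counts moved with the groups. They were 28717 to 29902 in N0, 15031 to 16706 in NAg and 49187 to 54877 in NPI, and 24890 to 30103 in T0, 19496 to 22943 in TAg and 54004 to 56963 in TPI. Much of the higher sum after PI was Cd28, which averaged 4260 in N0, 26002 in NPI, 4032 in T0 and 26034 in TPI. After PI, Cd3d, Cd3g and Cd4 had lower means than at rest in both cell states. Cd3e, Cd5 and Lck had higher ones. Of the 7 markers, 5 (Cd3d, Cd3e, Cd3g, Cd4 and Cd28) were called lower in NAg than N0 and 0 in TAg than T0, and Cd3g was called higher in TAg than NAg. Their part in the members' values was not tested. Markers of other cells were not absent. The macrophage and monocyte markers summed to 2252 in NAg replicate 1 against 661 and 705 in the other NAg libraries. Their sums also differed between the cell states, with 595 to 858 in N0 and 1759 to 2128 in T0. After PI they were 391 to 595 in NPI and 802 to 956 in TPI. The part of these markers in the members' values was not tested. All NPI and TPI libraries came from male mice by their reads of Y-linked genes, all N0 and NAg libraries from females, and T0 and TAg held both, so that in naive cells PI, culture and sex cannot be told apart. In tolerized cells PI and culture cannot be told apart, since no group was cultured without PI. The male libraries of T0 and TAg were T0 replicates 1 and 2 and TAg replicate 3, so that sex also differed in part between the cell states. In these bulk samples fewer cells of a type and less RNA per cell cannot be told apart either.

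The sequences upstream of the genes are shown first for 4 members with different patterns, namely Ccl22, the member with the largest fall in tolerized cells after Ag, Xcl1, the member with the largest rise, Ccl20, which had more than 3 reads only in PI libraries, and Cxcl10, which answered to both stimuli. Each is the stretch of 250 bases before the RefSeq start of the gene on its own strand (build GRCm38.p6), 5′ to 3′. Capitals mark matches, on either strand, to a motif of NFAT (GGAAA), AP-1 (TGANTCA), NF-kB or the interferon-stimulated response element (ISRE), the last ones given by name alone, and some of these matches overlap.
Ccl22 (chr8:94745434-94745683, plus strand): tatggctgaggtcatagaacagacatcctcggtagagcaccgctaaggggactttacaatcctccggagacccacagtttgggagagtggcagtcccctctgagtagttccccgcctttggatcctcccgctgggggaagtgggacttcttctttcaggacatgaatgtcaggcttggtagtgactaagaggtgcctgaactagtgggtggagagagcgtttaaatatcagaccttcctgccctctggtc
Xcl1 (chr1:164935523-164935772, minus strand): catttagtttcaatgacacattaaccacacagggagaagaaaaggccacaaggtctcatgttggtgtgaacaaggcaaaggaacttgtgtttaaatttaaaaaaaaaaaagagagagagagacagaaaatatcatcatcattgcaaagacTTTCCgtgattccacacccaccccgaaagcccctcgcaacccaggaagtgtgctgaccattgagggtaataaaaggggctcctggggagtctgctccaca
Ccl20 (chr1:83116516-83116765, plus strand): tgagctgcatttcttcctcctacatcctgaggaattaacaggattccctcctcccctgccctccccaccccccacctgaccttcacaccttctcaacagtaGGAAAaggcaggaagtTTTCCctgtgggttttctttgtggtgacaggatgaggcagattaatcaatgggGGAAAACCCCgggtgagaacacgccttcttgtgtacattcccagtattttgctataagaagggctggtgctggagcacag
Cxcl10 (chr5:92348890-92349139, minus strand): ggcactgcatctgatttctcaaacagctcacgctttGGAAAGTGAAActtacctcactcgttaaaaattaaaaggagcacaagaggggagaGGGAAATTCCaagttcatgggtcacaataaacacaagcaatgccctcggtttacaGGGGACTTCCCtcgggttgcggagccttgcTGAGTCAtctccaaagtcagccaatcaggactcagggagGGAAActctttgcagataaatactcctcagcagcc

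Sequences were at hand for 6 of the 8 members (all but Ccl4 and Ccl5). The Ccl22 stretch held 0 matches to any of the 4 motifs, and that of Xcl1 held 1 NFAT match. The Ccl20 stretch held 1 NF-kB match and 3 NFAT matches, 1 of which lies inside the NF-kB match. Cxcl10 was the only one of the 6 with an ISRE match (213 to 204 bases before the start) and with an AP-1 match (74 to 68 bases before it), and it held 3 NF-kB matches, 2 of which overlap, and 3 NFAT matches. Ccl1 held 2 overlapping NF-kB matches and 3 NFAT matches, and Ccl3 held 2 NFAT matches. Among all 32851 promoters of the table, 7.3% held the NF-kB motif, 55.6% the NFAT motif, 6.7% the AP-1 motif and 3.0% the ISRE in the same 250 bases. These matches describe the letters of the window only.

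Summed over the 8 genes, reads were lowest at rest and higher after both stimuli, with PI giving the larger total. Not every member followed the sum, since Ccl5 was the most abundant at rest and was not called after Ag in either cell state. CPM here are reads scaled by the TMM-scaled library size, not by the library total. Reads of the 8 genes summed to between 21.2 and 44.4 CPM in N0 and between 42.7 and 76.0 CPM in T0. They reached 182 to 282 CPM in NAg, 283 to 489 in TAg, 736 to 1237 in NPI and 1359 to 1468 in TPI, so that within each cell state the libraries at rest, after Ag and after PI did not overlap. In NAg against N0, 6 of the 8 members were called higher (adjusted p under 0.05 and at least 2-fold, from edgeR's quasi-likelihood F test with p-values adjusted over all tested genes) and 0 lower, beside 19.5% of all genes called higher. In TAg against T0, 5 of 8 were called higher, beside 15.4% of all genes, and the number was 6 in some alternative fits that added Ccl20. In NPI against N0 it was 8 of 8, beside 15.7%, and in TPI against T0 7 of 8, all but Ccl5, beside 18.9%. The median log2 fold change of the members was 4.38 in NAg against N0, 3.50 in TAg against T0, 6.73 in NPI against N0 and 5.66 in TPI against T0, while the median over all tested genes lay between −0.10 and 0.00.

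**Figure D1:**
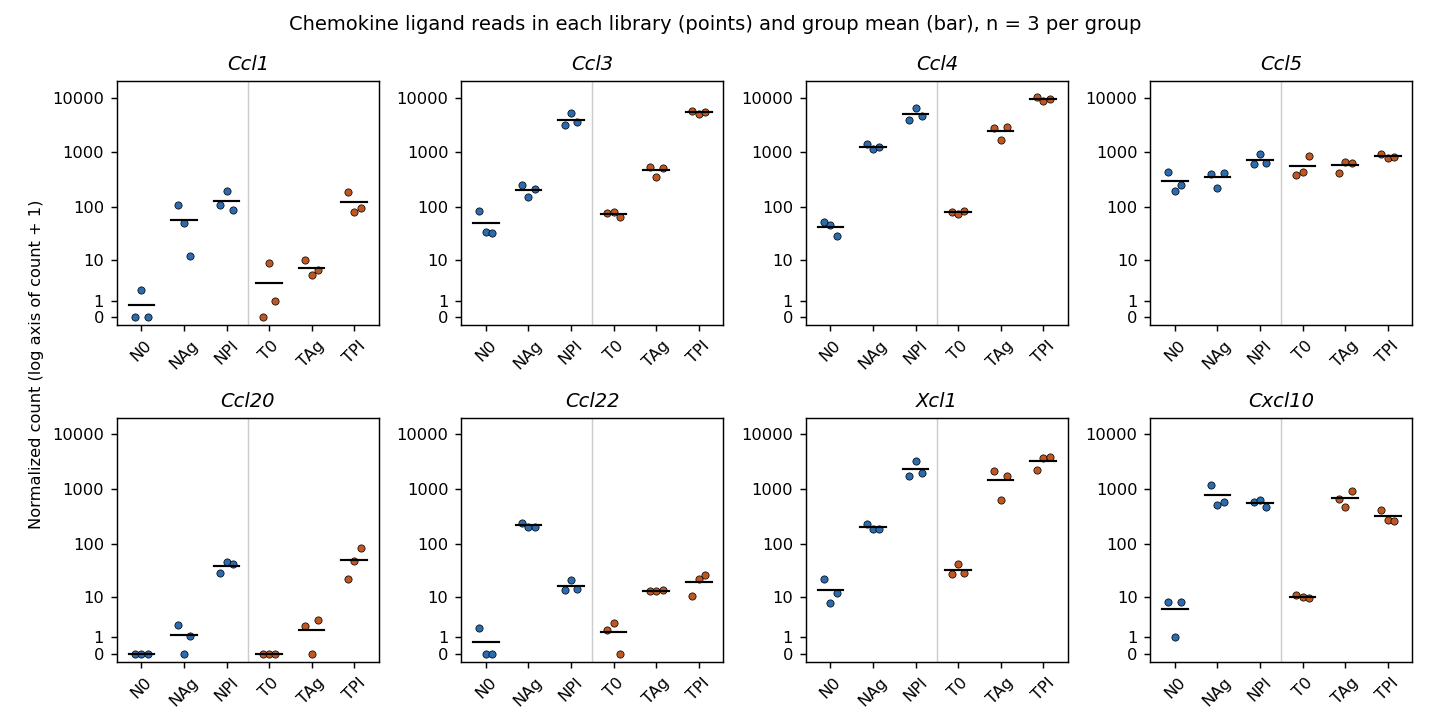
Normalized count of each chemokine ligand (y axis, log scale of the count plus 1) in the 6 groups (x axis), with a point for each library, blue for naive and orange for tolerized cells, and a bar for the mean of the 3 libraries. Ccl22 lies between 206 and 239.7 in the NAg libraries and at or below 26.1 in every other library, Xcl1 is higher in every TAg than NAg library, and Ccl5 differs least between groups.

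The members differed in their order of abundance, here compared as RPKM, reads scaled by TMM-scaled library size and by kilobase of exon. Ccl5 (CCL5, also known as RANTES) ranked first in both resting groups, with 22.6 ± 9.46 RPKM (SD, n = 3) in N0 and 42.4 ± 19.4 in T0, and did not overlap the next gene. In NAg it held the fourth rank, where its libraries overlapped those of Cxcl10, Xcl1 and Ccl3. Ccl4 (CCL4, also known as MIP-1β) was first after either stimulus, with 141 ± 13.9 RPKM in NAg, 273 ± 71.4 in TAg, 558 ± 152 in NPI and 1047 ± 83.7 in TPI. In NPI its libraries overlapped those of Ccl3 and Xcl1, and in TAg those of Xcl1, whereas in NAg and TPI no other member reached its level. Ccl22 had the sixth rank in NAg with 6.84 ± 0.61 RPKM and the last rank in both PI groups, with 0.51 ± 0.13 in NPI and 0.61 ± 0.25 in TPI. Ccl20 was at 0 at rest and last in both Ag groups.

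After Ag, the cell states differed for 4 of the 8 members, of which 2 were higher and 2 lower in tolerized cells. Ccl3 and Xcl1 were called higher in TAg than NAg, beside 6.58% of all genes called higher, and Ccl1 and Ccl22 were called lower, beside 4.21% called lower. The libraries of 5 members (these and Ccl4) did not overlap between TAg and NAg, beside 47.7% of all genes. The question behind this comparison is which inducible genes lose or keep their response to Ag in tolerized cells. The same was asked with PI, where 0 of the 8 members were called in TPI against NPI, beside 9.34% of all genes called in either direction. All 8 neutrophil markers were also called higher in TAg than NAg, with summed normalized counts of 130 to 364 in NAg and 2162 to 3969 in TAg, and in the same direction in T0 against N0 (71.4 to 177 and 1675 to 2969) and for 6 of the 8 in TPI against NPI (62.8 to 171.5 and 395 to 669). Their part in the members' values was not tested. At an unadjusted p under 0.05, 2 members differed between TPI and NPI, Ccl4 and Cxcl10, and DESeq2 called 0. The share of all genes at that unadjusted limit was not counted, so the number cannot be set against it.

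**Figure D2:**
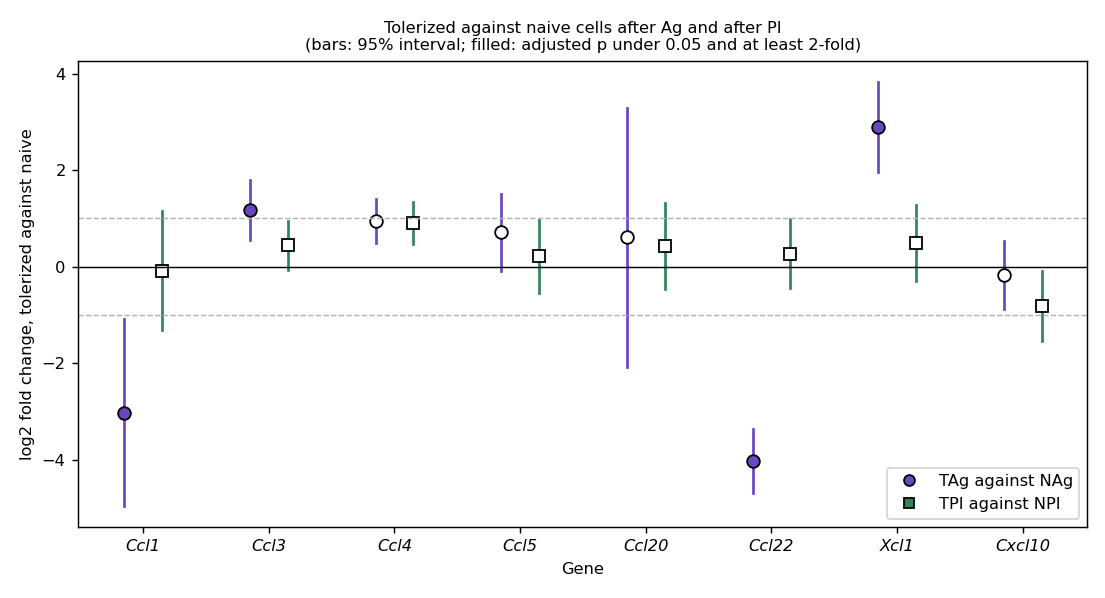
Log2 fold change of tolerized against naive cells (y axis) for each member (x axis) after Ag (TAg against NAg, circles) and after PI (TPI against NPI, squares), with 95% intervals as bars. Filled symbols, those of Ccl1, Ccl3, Ccl22 and Xcl1 after Ag, passed an adjusted p of 0.05 and the 2-fold limit (dashed lines), and no square did.

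Ccl22 (ENSMUSG00000031779), a ligand of CCR4, lies on chromosome 8 from 97269490 to 97275599 on the plus strand (mm9, as are the positions of the other genes). Its normalized count was 239.7, 206 and 207 in the 3 NAg libraries and 13.2, 13.1 and 13.3 in the 3 TAg libraries. It was 13.5, 20.9 and 14.4 in NPI and 10.5, 22.0 and 26.1 in TPI, and the 6 resting libraries had between 0 and 3 reads. The NAg libraries stood apart from every other library, and all other stimulated libraries lay between 10.5 and 26.1. TAg against NAg had a log2 fold change of −4.03 (with a standard error, SE, of 0.32, adjusted p = 8.61e-10), and the value stayed between −4.14 and −3.81 in 13 alternative fits. NPI was lower than NAg by −3.74 (SE 0.30, adjusted p = 7.08e-11). Between TPI and NPI the log2 fold change was 0.27, with a 95% interval from −0.45 to 0.99 (adjusted p = 0.596).

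Relative to rest, Ccl22 still rose in tolerized cells, by a log2 fold change of 3.03 in TAg against T0 (SE 0.58, adjusted p = 7.69e-05) and 3.59 in TPI against T0. With 563 reads in NAg and 2 in N0, the naive response was 323-fold, with a 95% counting interval from 89.0 to 2670. The Ag response of tolerized cells was smaller than that of naive cells by −5.06 on the log2 scale (SE 1.19, adjusted p = 0.00317), and it was the single member called in this test, beside 3.08% of all genes called lower. The resting libraries hold 7 reads in all, and without T0 replicate 2 the difference was −4.40 with an adjusted p of 0.0727. Intervals from read counts cover counting error only.

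Ccl17, the other ligand of CCR4, had 19, 22 and 8 reads in the 3 NAg libraries and between 0 and 2 in each of the other 15. It was lower in TAg than NAg by a log2 fold change of −3.97 (SE 0.78, adjusted p = 0.000409), and was the only other chemokine ligand called in that comparison. With 49 reads in NAg and 3 in TAg, the ratio was 17.1, with a counting interval from 5.53 to 86.0. Both CCR4 ligands therefore had their highest level in all 3 NAg libraries. Of the 8 dendritic cell markers, 0 were called between TAg and NAg, and their summed normalized counts were 506 to 700 in NAg and 460 to 870 in TAg. Of the 10 macrophage and monocyte markers, 4 were called lower in TAg than NAg (Vcam1, C1qa, C1qb and C1qc) and 2 higher (Lyz2 and Ly6c2), with a median log2 fold change of −2.06, and the sums were 661 to 2252 in NAg and 1290 to 1933 in TAg. C1qc, a complement gene of macrophages, had normalized counts of 115, 17.6 and 12.1 in NAg and 2.20, 3.58 and 3.07 in TAg. Vcam1 had 675, 151.5 and 72.6 in NAg and 33.0, 26.2 and 31.8 in TAg, so that both genes were above the TAg level in every NAg library and highest in replicate 1. Ccl22 differed less among the NAg libraries, and its log2 fold change in TAg against NAg was −3.94 without replicate 1 and −3.81 with the mean level of macrophage and dendritic cell markers as a covariate. That mean takes in markers called lower and markers called higher in TAg than NAg. It need not follow the level of Vcam1 and the C1q genes, so the fit cannot decide the source of the reads. Whether the reads of Ccl22 and Ccl17 come from T cells was not tested. The genes most like Ccl22 over the 18 libraries, by Pearson's r of log2 (normalized count + 1) among 11555 genes, were Net1 (0.97), Lipg (0.96) and Tnfaip8 (0.96). The libraries share groups and treatment, so these values are a description.

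Ccl1 (ENSMUSG00000020702, chromosome 11, 81990159 to 82119192, minus strand), the ligand of CCR8, is the second member that was lower in tolerized cells after Ag, but its evidence was weaker. Its counted gene model holds 2371 bp of exon spread over this long span. The start of that model was not compared with the RefSeq start used for the upstream sequence. The normalized counts of the NAg libraries were 111.5, 50.5 and 12.1, and those of TAg 9.91, 4.77 and 6.15. The groups did not overlap, but the NAg libraries spread widely, and replicate 1, the highest, was the library with the most macrophage marker reads, whose part in this was not tested. The log2 fold change was −3.02 (SE 0.89, adjusted p = 0.0160). Without NAg replicate 1 it was −2.12 with an adjusted p of 0.0836, and without TAg replicate 2 or 3 the adjusted p was 0.0548 and 0.0559. With the same marker covariate it was −1.86 (adjusted p = 0.163). After PI, the counts were 108, 193.5 and 88.3 in NPI and 186, 82.3 and 96.6 in TPI, and the libraries overlapped (log2 fold change −0.08, 95% interval −1.32 to 1.16). The genes most like Ccl1 over the libraries were an unnamed gene (ENSMUSG00000093606, r = 0.95), 1700016P03Rik (0.95) and AC165250.1 (0.94).

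Xcl1 (ENSMUSG00000026573, chromosome 1, 166861775 to 166865658, minus strand) encodes lymphotactin, the ligand of XCR1, and moved the opposite way. It had normalized counts of 234, 187 and 184 in NAg against 2110, 643 and 1715 in TAg. Every TAg library was above every NAg library, and TAg replicate 2 was well below the other TAg libraries. The log2 fold change was 2.89 (SE 0.43, adjusted p = 0.00016), between 2.56 and 3.38 in 13 alternative fits. After PI, Xcl1 reached 1711, 3217 and 2006 in NPI and 2199, 3690 and 3852 in TPI, and the 2 groups overlapped (log2 fold change 0.49, 95% interval −0.30 to 1.28). NPI was higher than NAg by 3.52 (SE 0.43, adjusted p = 8.18e-06), while TPI exceeded TAg by only 1.12 (SE 0.37, adjusted p = 0.0177), a call that was lost without TAg replicate 2 (log2 fold change 0.76) and without TPI replicate 2 or 3 (adjusted p = 0.0525 and 0.0594).

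At rest, Xcl1 was 21.8, 7.31 and 11.9 in N0 and 27.4, 41.5 and 28.8 in T0. These libraries did not overlap, but the difference did not pass the test (log2 fold change 1.24, 95% interval −0.81 to 3.29, adjusted p = 0.409). The difference between the Ag responses of both cell states was 1.65 (95% interval −0.83 to 4.13, adjusted p = 0.365). Over the 18 libraries, the gene most like Xcl1 was another member, Ccl4 (r = 0.97), followed by Ptger4 (0.97) and Ier3 (0.97). Xcl1, Ccl3, Ccl4 and Ccl5 are also made by NK cells. Of 8 markers of CD8 T cells and NK cells, 1 was called higher (Eomes) and 1 lower (Cd8b1) in TAg than NAg, and their summed normalized counts were 1339 to 3022 in NAg and 2078 to 3006 in TAg. The NK receptor gene Ncr1 averaged 274 in NAg and 211 in TAg. In TPI against TAg, 6 of these 8 markers were called lower and 0 higher, beside 18.8% of all genes called lower. In NPI against NAg 3 were called lower and 0 higher, beside 18.4%. The marker sums were 1429 to 2211 in NPI and 793 to 1146 in TPI. Their part in the values of Xcl1 was not tested.

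Ccl3 (ENSMUSG00000000982, chromosome 11, 83461346 to 83462857, minus strand) and Ccl4 (ENSMUSG00000018930, chromosome 11, 83476086 to 83478185, plus strand) are neighbors that encode MIP-1α and MIP-1β. Ccl3 had normalized counts of 252, 156 and 217 in NAg and 534, 352 and 522.5 in TAg, with no overlap. The log2 fold change was 1.18 (SE 0.29, adjusted p = 0.00567), near the 2-fold limit. Ccl4 had 1399, 1148 and 1279 in NAg and 2802, 1717 and 2858 in TAg, again with no overlap. Its log2 fold change of 0.95 (SE 0.21, adjusted p = 0.0027) passed the test but not the 2-fold limit, and Ccl4 was called without NAg replicate 1 (1.03), without TAg replicate 2 (1.15) and with the marker covariate (1.17). The 95% intervals of the changes were 0.55 to 1.80 for Ccl3 and 0.50 to 1.40 for Ccl4, so that the different call rests on the limit.

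After PI, Ccl3 had 3091, 5289 and 3507 in NPI and 5731, 5037 and 5349 in TPI, which overlapped (log2 fold change 0.44, 95% interval −0.07 to 0.95). Ccl4 had 3926, 6560 and 4592 in NPI and 10122, 8631 and 9578 in TPI, with no overlap. Its log2 fold change was 0.91 (SE 0.20, adjusted p = 0.00276), and without NPI replicate 2 it was 1.15, so that the gene was called. At rest, Ccl4 was 53.5, 45.9 and 28.8 in N0 and 79.6, 75.1 and 85.4 in T0, a log2 fold change of 0.90 (95% interval 0.11 to 1.69) that did not pass after adjustment (adjusted p = 0.103). Ccl4 was thus higher in every tolerized library than in every naive library of the same stimulus, and the difference between its responses in both states was 0.05 for Ag (95% interval −0.91 to 1.01) and 0.01 for PI (95% interval −1.21 to 1.22).

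The balance between Ccl3 and Ccl4 depended on the stimulus. The ratio of Ccl4 to Ccl3 reads per kilobase was 0.73 to 1.55 in N0 and 1.08 to 1.52 in T0. After Ag it was 6.45 to 8.53 in NAg and 5.67 to 6.35 in TAg, and after PI only 1.44 to 1.52 in NPI and 1.99 to 2.08 in TPI. The Ag libraries of either cell state did not overlap those at rest or after PI. In the test of each gene, NAg against N0 gave a log2 fold change of 4.90 for Ccl4 (SE 0.29) and 2.03 for Ccl3 (SE 0.37), whereas NPI against N0 gave 6.88 and 6.28. NPI exceeded NAg by 1.98 for Ccl4 (SE 0.21, adjusted p = 1.5e-06) and by 4.25 for Ccl3 (SE 0.29, adjusted p = 1.34e-08), and TPI exceeded TAg by 1.94 and 3.51. The genes most like Ccl3 over the libraries were Plek (r = 0.98), Egr1 (0.98) and Fhl2 (0.98), and those most like Ccl4 were Errfi1 (0.99), Ptger4 (0.99) and Litaf (0.99).

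**Figure D3:**
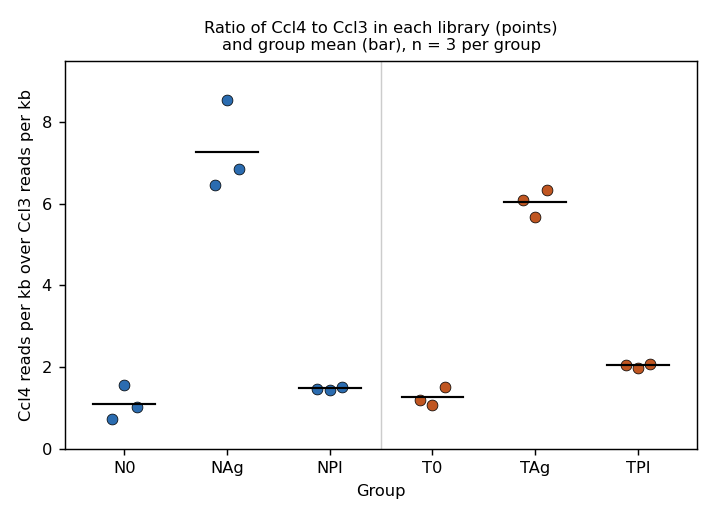
Ratio of Ccl4 to Ccl3 reads per kilobase of exon (y axis, linear) in each library (points, blue for naive and orange for tolerized cells) with the group mean (bar, n = 3) for the 6 groups (x axis). The NAg and TAg libraries lie between 5.67 and 8.53, and all resting and PI libraries between 0.73 and 2.08.

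Ccl5 (ENSMUSG00000035042, chromosome 11, 83339280 to 83344020, minus strand) was the member least changed by stimulation. Its normalized counts were 436, 198 and 255 in N0, 387, 433 and 849 in T0, 407.5, 228 and 424.5 in NAg, and 424, 669 and 643 in TAg. After PI they were 607.5, 931 and 649 in NPI and 941, 784 and 813 in TPI. The libraries at rest and after Ag overlapped in both cell states, with log2 fold changes of 0.25 in NAg against N0 (95% interval −0.58 to 1.08) and 0.06 in TAg against T0 (95% interval −0.71 to 0.84). NPI was called higher than N0 by 1.29 (SE 0.37, adjusted p = 0.0081) and higher than NAg by 1.04 (SE 0.37, adjusted p = 0.0242), the latter not without NAg replicate 2 or NPI replicate 2 (adjusted p = 0.0955 and 0.0912). T0 exceeded N0 by 0.90 (95% interval 0.10 to 1.70, adjusted p = 0.109), and without N0 replicate 1 this was 1.29 and was called (adjusted p = 0.0397).

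Ccl20 (ENSMUSG00000026166, chromosome 1, 83113341 to 83115742, plus strand), the ligand of CCR6, had 0 reads in each of the 6 resting libraries. After Ag it had 2, 0 and 1 reads in NAg and 2, 0 and 3 in TAg. After PI it had 27, 41 and 49 reads in NPI and 27, 44 and 115 in TPI, so that the PI libraries stood above all others. With a floor of 3 reads over the resting group, NPI was at least 38.1-fold and TPI at least 58.1-fold higher than rest (adjusted p = 4.32e-06 and 7.79e-07). The log2 fold change of TPI against NPI was 0.43 (95% interval −0.47 to 1.32). The rise from T0 to TAg, from 0 to 5 reads, did not pass the test (adjusted p = 0.0728), but it passed in 4 alternative fits (adjusted p from 0.0226 to 0.0404).

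Cxcl10 (ENSMUSG00000034855, chromosome 5, 92775664 to 92777915, minus strand), the interferon-induced ligand of CXCR3, was the only member whose mean was higher after Ag than after PI in both cell states, which in naive cells rests on NAg replicate 1. The log2 fold change of NPI against NAg was −0.47 (95% interval −1.17 to 0.24, adjusted p = 0.228), and it was 0.0075 without that library and 0.59 with the marker covariate (adjusted p = 0.985 and 0.200). Its normalized counts were 1211, 517 and 591 in NAg and 670, 464 and 923 in TAg, which overlapped (log2 fold change −0.17, 95% interval −0.87 to 0.53). They were 571, 639 and 469 in NPI and 414, 274 and 261 in TPI, which did not overlap. The difference between TPI and NPI was −0.82 (95% interval −1.54 to −0.09) and did not pass after adjustment (adjusted p = 0.0735). TPI was called lower than TAg by −1.12 (SE 0.33, adjusted p = 0.0101), 1 of the 6 members called there and the only one lower, beside 18.8% of all genes called lower and 18.3% higher. That call was lost in 3 of 13 alternative fits. Without TAg replicate 3 the adjusted p was 0.0552. The log2 fold change was −0.99 without TPI replicate 3 and −0.94 with the marker covariate, both short of the 2-fold limit. The rise from rest was 7.05 in NAg against N0 (SE 0.57) and 6.09 in TAg against T0 (SE 0.52), from 1 to 8 reads per N0 library and 10 to 12 per T0 library. Cxcl10 lies within the span of Art3 on the opposite strand, with 133 bp of shared exon, and the use of strand in counting is not given in the sources used here. The genes most like Cxcl10 were Prps1, Kpna2 and Calr (r = 0.98 each).

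The other CXCR3 ligands, Cxcl9 and Cxcl11, were called higher than at rest after both stimuli in both cell states, and lower after PI than after Ag. Cxcl9 had normalized counts of 1006, 564 and 527 in NAg and 658, 528 and 673 in TAg, but 21.8, 20.9 and 15.3 in NPI and 43.6, 22.0 and 28.3 in TPI. NPI was lower than NAg by a log2 fold change of −5.18 (SE 0.30, adjusted p = 1.17e-10), and TPI lower than TAg by −4.28. Against rest, Cxcl9 rose by 7.96 in NAg and 2.77 in NPI (adjusted p = 0.00149), and by 6.72 in TAg and 2.44 in TPI (adjusted p = 0.000262). Cxcl11 had 246, 146 and 111 in NAg and 190.5, 159 and 300.2 in TAg, but between 6.79 and 32.3 in the PI libraries, and NPI was lower than NAg by −4.45 (SE 0.41). Against rest, Cxcl11 was higher in NPI (23 reads against 2 in N0, a ratio of 11.2 with a counting interval from 2.77 to 98.2, adjusted p = 0.00756) and in TPI (75 reads against 1 in T0, adjusted p = 1.05e-05). NAg replicate 1 was the highest NAg library for all 3 genes. Without it, the log2 fold change of Cxcl10 in TAg against NAg was 0.32 (adjusted p = 0.401). Of the 10 macrophage and monocyte markers, 7 were called lower in NPI than NAg and 0 higher, beside 18.4% of all genes called lower. In TPI against TAg 2 were called lower and 0 higher, beside 18.8%. Their part in the lower values of Cxcl9, Cxcl11, Ccl22 and Ccl17 after PI was not tested.

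**Figure D4:**
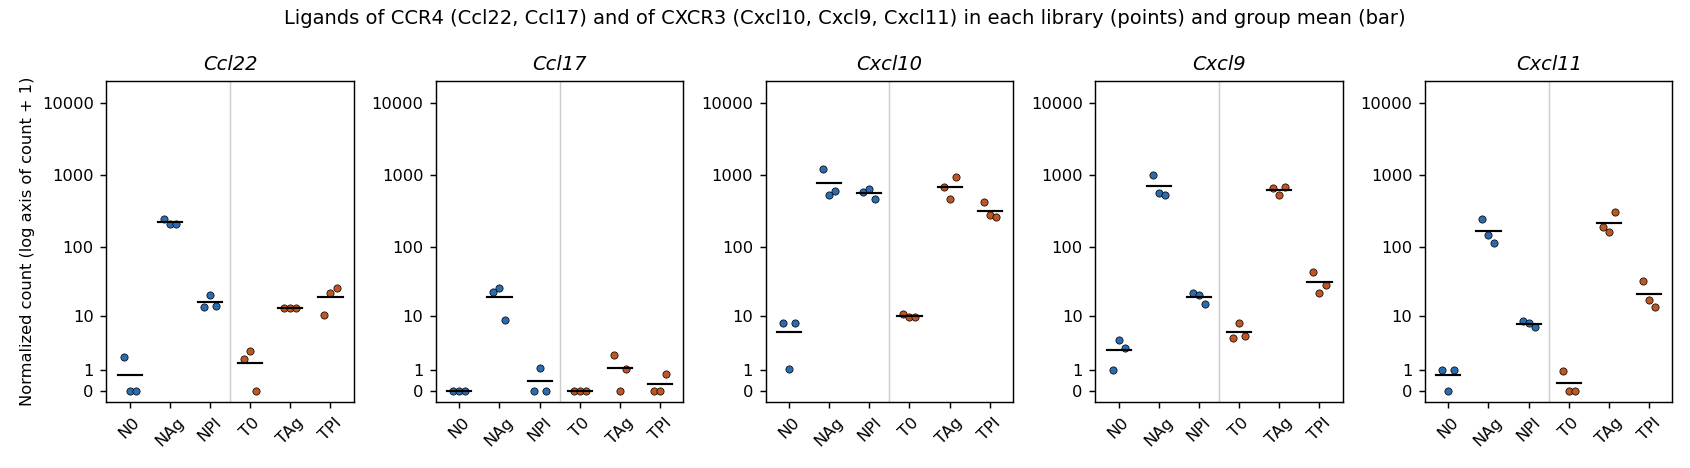
Normalized count (y axis, log scale of the count plus 1) of the CCR4 ligands Ccl22 and Ccl17 and of the CXCR3 ligands Cxcl10, Cxcl9 and Cxcl11 in the 6 groups (x axis), with a point for each library and a bar for the mean. Ccl22 and Ccl17 peak in NAg, and Cxcl9 and Cxcl11 are high after Ag in both cell states and low after PI, where Cxcl10 lies between 261 and 639.

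Of 7 interferon-linked genes listed beside Cxcl10, Ifng, Isg15 and Gbp2 were called higher after Ag in both cell states. Ifng, which encodes interferon gamma, averaged 932 ± 583 in NAg and 904 ± 210 in TAg, and 4950 ± 1046 in NPI and 8263 ± 2614 in TPI. Gbp2, a GTPase gene induced by interferon gamma, averaged 3237 ± 508 in NAg and 4452 ± 396 in TAg, but only 588 ± 67.7 in NPI and 569 ± 78.1 in TPI. Its log2 fold change of NPI against NAg was −2.46 (SE 0.15, adjusted p = 9.58e-11). Ifit1, Ifit3 and Mx1 were called lower in NPI than NAg and in TPI than TAg. Irf7 was the only gene of these called between TPI and NPI, with a log2 fold change of −1.03 (SE 0.22).

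The differences between cell states after Ag were then set against those after PI in the same model, a contrast that was added after the levels had been seen. Of the 8 members, 3 were called, beside 9.10% of all genes called higher and 6.38% called lower. For Ccl22 the log2 fold change after Ag was lower than that after PI by −4.30 (SE 0.48, adjusted p = 1.28e-07), with values from −4.62 to −3.98 in 19 alternative fits. For Xcl1 it was higher by 2.40 (SE 0.56, adjusted p = 0.00417), with values from 2.04 to 3.08. For Ccl1 it was lower by −2.94 (SE 1.08, adjusted p = 0.0478), which was lost under 14 of 19 alternatives, among them each that left out a TAg library, NAg replicate 1 or 2, NPI replicate 1 or 3, or TPI replicate 1 or 3. For Ccl3, Ccl4, Ccl5, Ccl20 and Cxcl10, the 95% interval of this difference included 0. Cxcl10, at 0.65, was called without NAg replicate 1 (1.11, adjusted p = 0.0324) and with the marker covariate (1.53, adjusted p = 0.0111), and Ccl3, at 0.74, with the marker covariate (1.28, adjusted p = 0.0289). Of the 8 markers of CD8 T cells and NK cells, 3 were called higher in this contrast and 0 lower. Their part in the value of Xcl1 was not tested.

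At rest, 0 of the 8 members were called between T0 and N0, beside 6.18% of all genes called in either direction. At an unadjusted p under 0.05 the number was 2 (Ccl4 and Ccl5), and DESeq2 called 0. The libraries of Ccl4, Xcl1 and Cxcl10 did not overlap between T0 and N0, all 3 being higher in T0, beside 13.1% of all genes. The median log2 fold change of the members was 0.90, and that of all tested genes −0.08. For the PI response, the difference between tolerized and naive cells was called for 0 of the 8 members, beside 4.07% of all genes in either direction, with 0 at an unadjusted p under 0.05 and 0 by DESeq2. The share of all genes at an unadjusted p under 0.05 was not counted for either comparison.

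In NPI against NAg, 6 of the 8 members were called, beside 21.3% of all genes called higher and 18.4% called lower. Ccl3, Ccl4, Ccl5, Ccl20 and Xcl1 were higher in NPI and Ccl22 was lower. In TPI against TAg the members called higher were Ccl1, Ccl3, Ccl4, Ccl20 and Xcl1. Ccl1 rose from TAg to TPI by a log2 fold change of 4.11 (SE 0.83, adjusted p = 0.000647), whereas NPI against NAg gave 1.17 (95% interval −0.17 to 2.51, adjusted p = 0.116), which was called at 2.05 without NAg replicate 1 (adjusted p = 0.0162). Ccl22 gave 0.56 in TPI against TAg (95% interval −0.20 to 1.32, adjusted p = 0.191).

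Among other chemokine ligands, those called between the cell states were Ccl17 after Ag, Ccl2 and Cxcl11 after PI, and Cxcl2 and Ccl6 at rest. Of a list of 33, 32 were in the files, 16 were tested and 8 had no read in any library. In TAg against NAg, 0 were called higher and 1 lower (Ccl17, above), beside 6.58% and 4.21% of all genes, and in TPI against NPI 2 were called higher, Ccl2 and Cxcl11, beside 9.34% called in either direction. Ccl2, which encodes MCP-1, had 3, 8 and 9 reads in NPI and 40, 19 and 41 in TPI, a log2 fold change of 2.07 (SE 0.52, adjusted p = 0.00293). Cxcl11 had 8, 7 and 8 reads in NPI and 40, 16 and 19 in TPI, a log2 fold change of 1.48 (SE 0.49, adjusted p = 0.0224). Of the 10 macrophage and monocyte markers, 2 were called higher in TPI than NPI and 0 lower. They summed to 391 to 595 in NPI and 802 to 956 in TPI, and their part in the values of Ccl2 and Cxcl11 was not tested. In T0 against N0 2 were called, beside 6.18% of all genes. The neutrophil attractant gene Cxcl2 was higher by 1.96 (SE 0.53, adjusted p = 0.0118) and Ccl6, a gene of myeloid cells, by 1.04 (SE 0.30, adjusted p = 0.0161). The neutrophil markers rose in the same comparison, as given above, and their part in both results was not tested.

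Values are given for 7 receptors of the members. In T0 against N0, Ccr1 and Cxcr3 were called higher, by log2 fold changes of 2.37 (SE 0.52) and 2.16 (SE 0.32), beside 6.18% of all genes called in either direction. Both were called higher in TAg against NAg, by 1.89 and 1.64, beside 6.58% of all genes called higher. All 8 neutrophil markers were called higher in both comparisons, and their part in the values of these receptors was not tested. Cxcr3 averaged 180 ± 107 in N0, 807 ± 131 in T0, 241 ± 52.4 in NAg, 748.5 ± 69.5 in TAg, 469 ± 53.9 in NPI and 2337 ± 308 in TPI. It was the only one of these receptors called in TPI against NPI (2.32, SE 0.29, adjusted p = 3.45e-05), beside 9.34% of all genes called in either direction. Ccr8, the receptor of CCL1, rose after Ag to 148.5 ± 55.3 in NAg and 146 ± 27.4 in TAg from 16.8 ± 2.1 in N0 and 31.7 ± 4.24 in T0, and after PI to 580.0 ± 58.6 and 883 ± 62.6. Its log2 fold change in TAg against NAg was −0.02 (95% interval −0.44 to 0.41). Ccr3, Ccr4, Ccr6 and Xcr1 were called in none of the 12 comparisons.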

How the data were processed

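RNA-seq libraries were grouped by the labels, with 3 of the 18 in each of 6 groups. The authors aligned paired-end reads to mm9 with TopHat2 2.1.1 and counted them per Ensembl gene with HTSeq 0.9.1, as the submitters' notes and the methods state, and the deposited values are these raw counts, without normalization or pooling. The blank row that ends each file was left out. Symbols, positions and exon lengths come from an annotation of the same build (NCBIM37), and upstream sequences from RefSeq (GRCm38.p6).

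Genes were kept where the mean normalized count reached 3 in any group. A model with the 6 groups was fitted to all libraries with edgeR 4.0.16 (R 4.3.3), using TMM and the robust quasi-likelihood test, and p-values were adjusted over the 17240 genes by the Benjamini-Hochberg method. Every adjusted p is from this test unless another fit is named. Standard errors and 95% intervals come from its F statistic. Called means an adjusted p under 0.05 and at least 2-fold. The fitting script was tested on simulated counts. DESeq2 1.42.0 and other settings were tried as alternatives. The difference between cell states after Ag less that after PI was added after the levels had been seen.

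The members, gene lists and motifs were chosen with earlier results of these data known. Genes outside the members are named by a fixed rule: other ligands called between cell states plus Cxcl9, Cxcl11 and Ccl17, the listed receptors, the 3 genes most like each member with a mean of at least 50 in a group, and the marker and interferon-linked genes listed beforehand, from which the text takes examples. The replicates are biological by the methods, and every pair differed by more than sampling noise. Some genes of the receptor and interferon lists are not reported here. The DNase-seq data of the study were not analysed here.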

Additional observations from a re-analysis of the deposited data

Results flagged for a closer look

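Several genes were picked out because a test found that their response differed between cell states or between stimuli. For Ccl22, the log2 Ag response of tolerized cells less that of naive cells was −5.06, with a mean normalized count of 217 in NAg, 0.66 in N0, 13.2 in TAg and 1.47 in T0. For Ccl22 the log2 difference between tolerized and naive cells after Ag less the same after PI was −4.30. The same contrast gave −2.94 for Ccl1, which was lost under 14 of 19 alternatives, and 2.40 for Xcl1, which kept its call under all 19 (adjusted p at most 0.0202). Outside the members, the log2 PI response of tolerized less naive cells was −1.01 for Ccl9 (standard error 0.24) and −1.86 for Cxcl2 (standard error 0.58), the latter from 1 to 5 reads per N0 library.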

How the results depend on the processing

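The precision was limited by the low counts at rest, where Ccl20 had 0 reads and Ccl1 and Ccl22 had at most 10 in any library, and by 3 replicates per group. Log2 fold changes of members were refitted 1052 times over 78 results, and 982 of these fits kept the direction and the call, 33 lost the call, 18 gained it and 19 changed sign, all of the last for differences without a call. For the numbers of members called, T0 against N0 gave 1 in place of 0 in the fit of only these groups (Xcl1), TPI against NPI gave 1 with the macrophage and dendritic marker score as a covariate (Cxcl10), and the difference between Ag responses gave 2 with DESeq2 (Ccl22 and Ccl1). The cause was not tested. With single libraries left out these numbers were 0 to 1, 0 to 1 and 0 to 1. Without N0 replicate 1, Ccl5 was called in T0 against N0, without NPI replicate 2, Ccl4 in TPI against NPI, and without T0 replicate 2, no member in the difference between Ag responses.

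With the marker score, Cxcl10 changed sign in TAg against NAg (0.48) and NPI against NAg (0.59), and Ccl20 in TPI against NPI (−0.11). With sex as a covariate Ccl5 was at −0.0057 in TAg against T0. With libraries left out, the log2 fold changes that changed sign ranged from −0.019 to 0.59 for Ccl5 in NAg against N0, from −0.18 to 0.47 for Ccl5 in TAg against T0, from −0.45 to 4.83 for Ccl1 in T0 against N0, from −0.016 to 1.51 for Ccl20 in TAg against NAg, from −0.44 to 0.32 for Cxcl10 in TAg against NAg, from −0.51 to 0.32 for Ccl1 in TPI against NPI, from −0.15 to 0.82 for Ccl20 in TPI against NPI, from −0.041 to 0.60 for Ccl22 in TPI against NPI and from −0.69 to 0.0075 for Cxcl10 in NPI against NAg. Calls of Ccl20 in NPI against N0 and NPI against NAg were lost with sex as a covariate (adjusted p = 0.0524 and 0.21), a term estimable only from T0 and TAg, and that of Xcl1 in TPI against TAg with sex and when only TAg and TPI were fitted (adjusted p = 0.157 and 0.138).

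The replicate numbers did not pair the libraries, since deviations of same-numbered libraries had a mean correlation of −0.06 and 0 of 18 libraries were closest to their own number. With the replicate number as a block, 6, 6, 8 and 7 members were called in NAg against N0, TAg against T0, NPI against N0 and TPI against T0, and 4 in TAg against NAg, the only change being Ccl20 in TAg against T0 (adjusted p = 0.0405).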
